A study of Homo sapiens with 6 samples.

Results

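This comparison set each probe's log2 ratio after 8 h of actinomycin D against its log2 ratio at 0 min, for human GM00156 cells from the Coriell repository. It used 2 of the 6 two-colour arrays of the series. Of 14080 probes on the array, 13484 were measured on both, and 8892 genes had at least 1 such probe assigned to them alone. The cells had been incubated for 10 h with 100 µg/ml emetine or without it, actinomycin D was then added to both cultures at 5 µg/ml, and messenger RNA of the treated (Cy3) and untreated (Cy5) culture was hybridised to 1 array for each of 5 harvests, which were taken after 0, 10 and 30 min and after 1 and 8 h. The remaining array compared 0 min treated RNA with itself and carries no actinomycin D in its description. The description of the 0 min array says that treated RNA was set against treated RNA, whereas its channels are named treated and untreated, and this conflict touches every difference below. The labels do not say which culture is in the numerator of the deposited ratio, so ratios are called positive or negative and no culture is named as the higher. With 1 array for each harvest, the 8 h minus 0 min difference has no replicate error and no test, and the number of arrays limits the precision.

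Emetine blocks the elongation step of protein synthesis, and actinomycin D blocks transcription, so that an RNA present at the addition of actinomycin D is followed while it decays. Decay of many transcripts is coupled to their translation: nonsense-mediated decay, which removes messages with a premature stop codon, needs translating ribosomes, and several short-lived messages with AU-rich elements last longer when translation is blocked. In such a chase the ratio between the 2 cultures moves when a message is lost faster in one culture than in the other. A message lost at the same rate in both cultures keeps the ratio of its amounts. The deposited ratios come from background-subtracted intensities normalised on each slide, so they can differ from that ratio.

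The 8 h array was wider than the 0 min array. The median absolute deviation of the log2 ratio was 0.298 at 0 min and 0.582 at 8 h, a factor of 1.95, over the probes measured on both. Over all probes measured on each array it was 0.297, 0.616, 0.527, 0.354 and 0.585 at 0 min, 10 min, 30 min, 1 h and 8 h. The 0 min array was thus the narrowest of the harvests and the 10 min array the widest, and the spread did not grow steadily with time. Differences are therefore given for the values as deposited and after multiplying the 0 min array by 1.40 and the 8 h array by 0.716, which gives both a deviation of 0.416 without moving 0, so that no ratio's sign is altered. Across the 13484 probes the ratios of the 2 arrays correlated with a Pearson coefficient of 0.728, a description across probes that are not independent, and 10485 probes (77.8%) had the same sign on both. The median difference was 0.04 as deposited and -0.02 after scaling. The ratios of 2111 probes (15.7%) lay at least 1 apart as deposited, 1419 of them positive and 692 negative, and those of 1225 probes (9.08%) after scaling, 624 of them positive and 601 negative.

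Probes were put in 4 classes. A ratio was reversing where the signs were opposite and both sizes at least 0.5, diverging where its size was larger by at least 1 at 8 h, narrowing where its size was smaller by at least 1 at 8 h, and persisting where both sizes were at least 1 with the same sign and a difference under 1. As deposited, 1600 probes (11.9% of those measured) were diverging, 38 (0.282%) narrowing, 530 (3.93%) persisting and 174 (1.29%) reversing. After scaling, 313 (2.32%) were diverging, 422 (3.13%) narrowing, 878 (6.51%) persisting and 204 (1.51%) reversing. In the diverging class the positive side held 1147 probes (8.51%) and the negative side 453 (3.36%) as deposited, against 262 (1.94%) and 51 (0.378%) after scaling. In the reversing class 94 probes (0.697%) ended positive and 80 (0.593%) negative as deposited. By gene the sides were less even, with 59 (0.664%) ending positive and 34 (0.382%) negative. All 313 diverging probes of the scaled values were also diverging as deposited. That overlap is fixed in advance, because the scaling enlarges the 0 min values and shrinks those at 8 h. For the same reason every probe or gene narrowing as deposited is also narrowing after scaling. On both scales 127 probes (0.942%) were reversing. The limits cut through a continuous range: the last diverging probe as deposited grew by 1.0002 and the first outside by 0.9996. By gene, 1042 of 8892 (11.7%) were diverging, 27 (0.304%) narrowing, 347 (3.9%) persisting and 93 (1.05%) reversing as deposited, and 192 (2.16%), 27 (0.304%), 179 (2.01%) and 68 (0.765%) held their class on both scales.

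**Figure D1:**
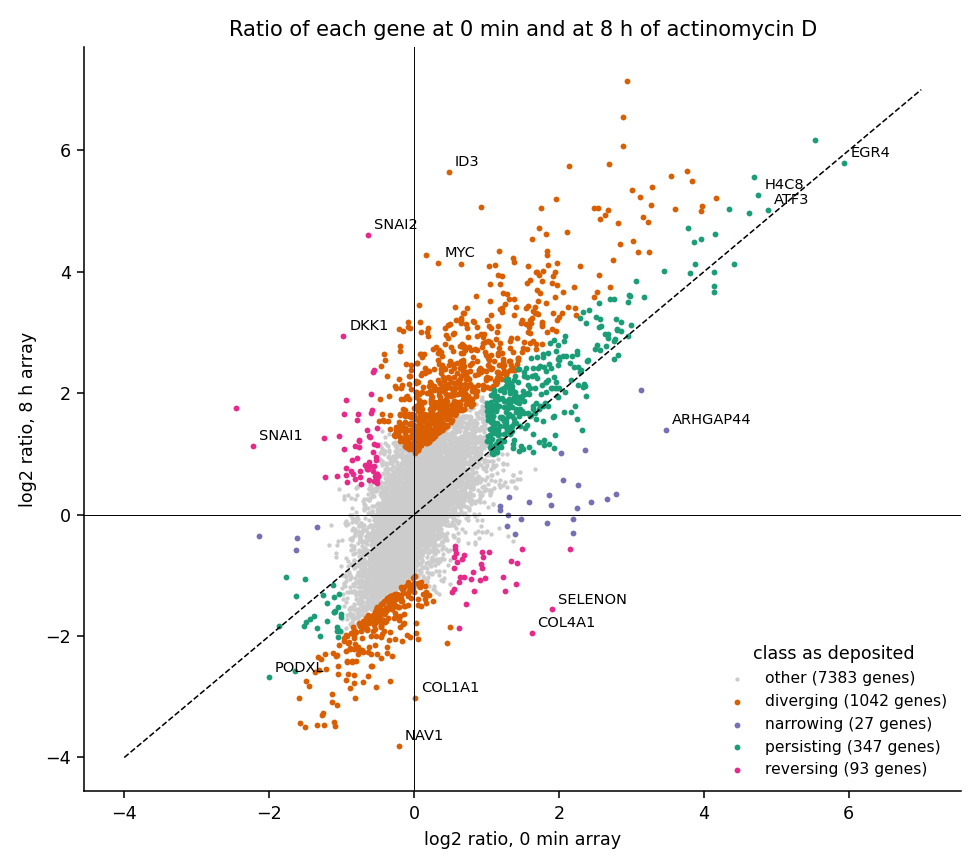
Each point is 1 of 8892 genes, with its deposited log2 ratio on the 0 min array (x axis) and on the 8 h array (y axis); colours give the class, the dashed line marks equal ratios, and the 1042 diverging genes lie mostly above it on the positive side while the 93 reversing genes lie in the upper left and lower right corners.

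The harvests of the first hour, set against 0 min by the same rule, gave fewer diverging and reversing probes. These comparisons share the 0 min array with the 8 h comparison, so their values are only set side by side. As deposited, diverging probes made up 4.67%, 4.36%, 1.22% and 11.9% of probes at 10 min, 30 min, 1 h and 8 h. After scaling each pair to equal spread the shares were 0.214%, 0.574%, 0.829% and 2.32%. Reversing probes made up 0.184%, 0.350%, 0.570% and 1.29% as deposited, in the same order of harvests. The other 2 classes were not largest at 8 h as deposited. Narrowing probes made up 0.111%, 0.261%, 1.76% and 0.282%, and persisting probes 5.72%, 5.15%, 2.37% and 3.93%. The spread differed between the harvests, as given above, and its part in the deposited shares was not tested. The 1 h array had a shorter positive tail than the others: its highest ratio was 2.99, against 5.94 at 0 min and 7.14 at 8 h. Many series below with large positive ratios before 1 h are lower there, such as EGR4 with 6.44 at 30 min and 1.19 at 1 h. Other series, such as SNAI2 with 0.91 and 1.02, are not. The part of that array in the sequences of values was not tested.

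**Figure D2:**
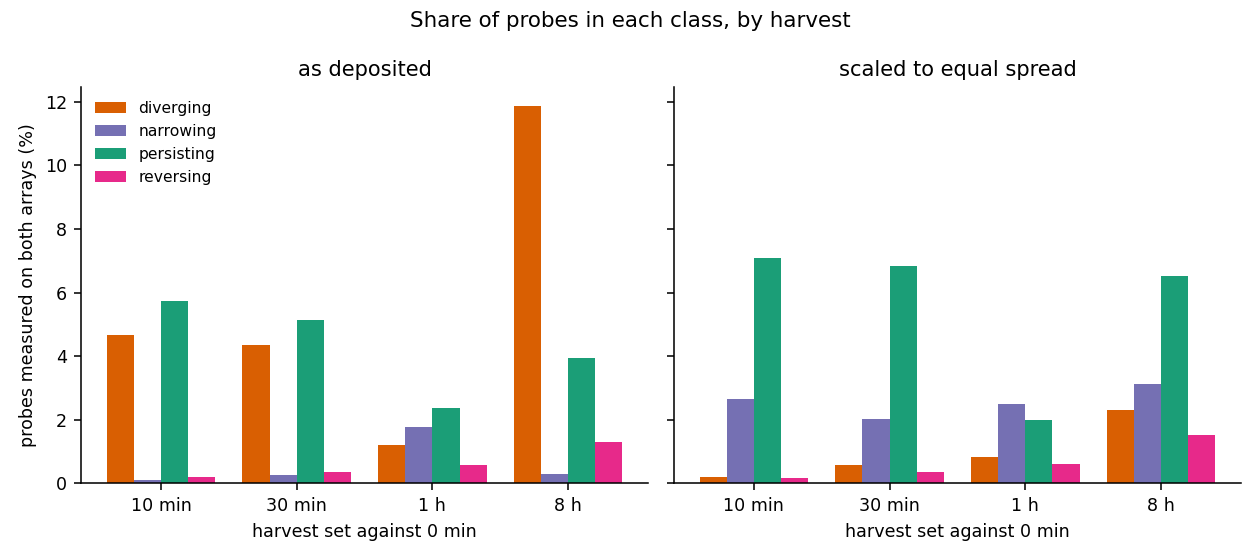
Bars give the share of probes (%) in the 4 classes when the 10 min, 30 min, 1 h and 8 h arrays are each set against the same 0 min array, as deposited (left) and scaled to equal spread (right); diverging probes reach 11.9% at 8 h as deposited and 2.32% after scaling.

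In what follows, values are deposited log2 ratios at 0 min, 10 min, 30 min, 1 h and 8 h in that order, each from 1 array, and the scaled difference is 8 h minus 0 min after scaling. Of the 50 genes chosen by class, each was measured by 1 probe, and on the array of treated RNA against itself they lay between -0.27 and 0.36 except IL1A at 1.13. That array's central 99% of probes ran from -0.36 to 0.57.

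The 8 genes chosen for diverging to the positive side are a small sample of the class and stand for no group. ID3, an inhibitor of basic helix-loop-helix transcription factors, had ratios of 0.48, 0.78, 2.12, 0.93 and 5.65, a difference of 5.17 as deposited and 3.38 after scaling. MYC, the growth-promoting transcription factor with a short-lived message, had 0.34, 1.23, 3.39, 1.15 and 4.15, a scaled difference of 2.50. MYC was thus high at 30 min as well as at 8 h, and low again at 1 h. The transcription factors MSC (musculin) and FOXD1 stayed within 1.04 of 0 through the first hour: MSC read -0.09, 0.13, 1.04, 0.69 and 3.17, and FOXD1 read -0.15, -0.38, 0.39, 0.34 and 3.02. RGS3, which speeds the shut-off of G proteins, read 0.17, 1.01, 2.07, 1.29 and 4.28, and BCAR3, an adaptor protein of integrin signalling, read 0.92, 1.11, 1.80, 0.99 and 5.07. FRMD6, an upstream member of the Hippo pathway, stayed between 0.07 and 0.55 up to 1 h and reached 3.45 at 8 h, with readings of 0.07, 0.55, 0.53, 0.38 and 3.45. CDCA8, a subunit of the chromosomal passenger complex that acts at mitosis, was negative or near 0 at 0 min (-0.21), 10 min (-0.48) and 1 h (-0.02), was not measured at 30 min, and was 3.05 at 8 h. In all 8 genes the 8 h ratio was the highest of the harvests measured.

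On the negative side, too, 8 genes are described. COL1A1, the alpha-1 chain of type I collagen, had ratios of 0.01, -1.57, -1.62, -2.19 and -3.02, a difference of -3.03 as deposited and -2.18 after scaling. MMP14, a membrane-bound metalloproteinase that cleaves collagen, read 0.05, -1.31, -1.31, -1.50 and -2.04. For both genes much of the distance was already present at 10 min. LMAN1, a cargo receptor between the endoplasmic reticulum and the Golgi, read -0.05, -0.69, -1.50, -1.29 and -2.02, and POR, the electron donor of microsomal cytochromes P450, read 0.02, -0.40, -0.93, -0.70 and -1.79. AZGP1, a secreted glycoprotein, read -0.09, -1.23, -1.33, -1.07 and -1.98. NAV1, a microtubule-associated protein of guided migration, had the largest difference of the 8 (-3.60 as deposited and -2.43 after scaling), stayed between -0.50 and -0.21 up to 1 h and lay at -3.82 at 8 h. NDRG1, a stress-responsive gene, likewise stayed within 0.41 of 0 up to 1 h and lay at -1.95 at 8 h. ZNF574, a zinc finger gene, moved over the whole course, with readings of -0.53, -0.90, -0.89, -1.59 and -2.85. All 8 genes had their lowest ratio at 8 h.

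The genes described next reversed from negative to positive. DKK1, a secreted antagonist of Wnt signalling, had ratios of -0.97, -1.03, -0.29, 0.17 and 2.95, a scaled difference of 3.47. ARRDC3, an arrestin-domain adaptor, read -0.94, -1.0, 0.19, 0.50 and 1.89, and PDE4B, a phosphodiesterase that degrades cyclic AMP, read -0.79, -0.88, -0.26, 0.07 and 1.55. These 3 genes were between -1.03 and -0.79 at 0 min and 10 min, crossed 0 between 10 min and 1 h, and were highest at 8 h. The RNA-processing genes POP7, a subunit of RNase P and RNase MRP, and DUSP11, a phosphatase that acts on RNA, stayed negative through the first hour: POP7 read -0.97, -1.61, -1.13, -0.40 and 1.66, and DUSP11 read -0.78, -0.98, -0.57, -0.16 and 1.66. The Snail-family repressors SNAI1 and SNAI2, named for their place among the immediate-early and AU-rich regulators, also reversed. SNAI2 read -0.64, -0.47, 0.91, 1.02 and 4.61, and SNAI1 read -2.22, -1.70, -0.42, 0.35 and 1.13. Their end points differ: SNAI2 moved from -0.64 to 4.61, SNAI1 from -2.22 to 1.13. ATP6V0A1, a subunit of the vacuolar proton pump, went from -2.46 to 1.75 but was not measured on any array in between, so its reversal rests on 2 values.

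The genes described next reversed from positive to negative. COL4A1, a chain of type IV collagen, had ratios of 1.62, 0.30, -1.27, -1.70 and -1.95, a scaled difference of -3.67. LAMC1, the gamma-1 chain of laminins, read 0.72, 0.34, -0.81, -0.68 and -1.47, and COL8A1, a chain of type VIII collagen, read 0.94, 0.56, 0.37, -0.38 and -0.88. COL4A1 and LAMC1 had turned negative by 30 min, and COL8A1 by 1 h. Some of the genes chosen here belong to the endoplasmic reticulum or Golgi. SELENON, a selenoprotein of the endoplasmic reticulum membrane, read 1.91, 0.56, -0.57, -1.13 and -1.56. GOLIM4, a Golgi membrane protein, read 0.83, 1.05, -0.04, -0.16 and -1.26, and CALR, the chaperone calreticulin, read 0.62, -0.97, -1.25, -1.15 and -1.10. CALR had most of its difference by 10 min and then stayed between -1.25 and -0.97. The protein kinases VRK1 and LIMK1 reversed as well: VRK1 read 1.26, 0.65, 0.25, -0.87 and -1.26, and LIMK1, which acts on the actin-severing protein cofilin, read 0.62, 0.04, -0.98, -1.13 and -1.87.

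**Figure D3:**
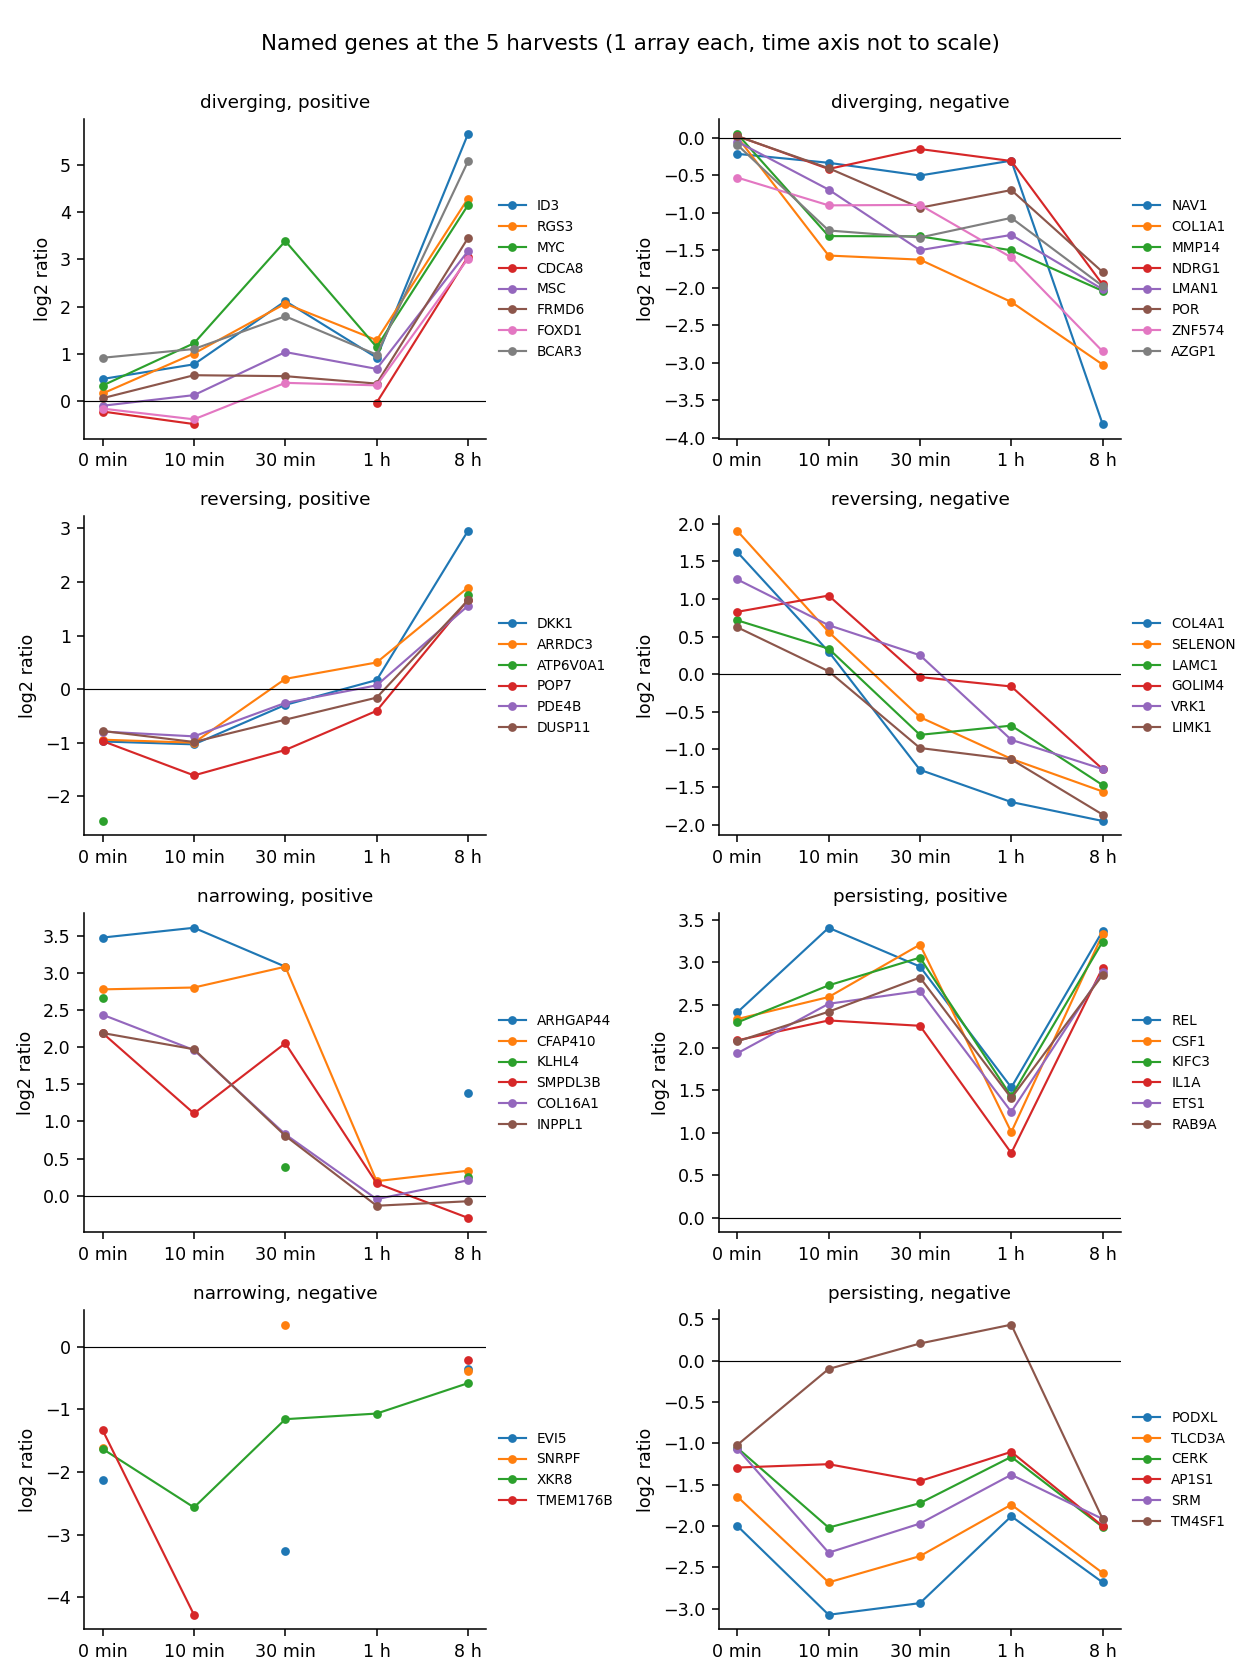
Deposited log2 ratios (y axis) of the 50 genes chosen by class at the 5 harvests (x axis, not to scale), 1 array each and 1 panel for each class and side; lines join neighbouring harvests that were both measured, and the named reversing genes cross 0 while NAV1 and NDRG1 leave the range near 0 only at 8 h.

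The arrays at 10 min, 30 min and 1 h took no part in choosing the classes, and they show where the reversing probes lay in between. Of 85 probes that reversed to positive as deposited and were measured at all 5 harvests, 4 (4.71%) were positive at 10 min, 15 (17.6%) at 30 min and 25 (29.4%) at 1 h. Among all 1442 probes at -0.5 or lower at 0 min, the shares were 1.46%, 3.47% and 4.58%, and 11.2% at 8 h. Of 76 probes that reversed to negative, 48 (63.2%) were still positive at 10 min, 31 (40.8%) at 30 min and 16 (21.1%) at 1 h. Among all 2264 probes at 0.5 or higher at 0 min, the shares were 97.7%, 96.2% and 92.1%, and 93.2% at 8 h. Most probes that ended negative were thus negative on the 1 h array, while most that ended positive were not yet positive there. The reversing probes were chosen by their signs at 0 min and 8 h, and the comparison probes by 0 min alone. Part of the gap between them follows from that choice. For the scaled order over the harvests, the 5 arrays were scaled together to equal spread, while classes and starting limits kept the scaling of the pair. After scaling, 62 of 106 probes (58.5%) that reversed to positive rose in order over the 10 min, 30 min and 1 h arrays. Among all 2409 probes at -0.5 or lower at 0 min, 27.8% did so. Of those that reversed to negative, 55 of 86 (64.0%) fell in order, against 24.98% of all 3170 probes at 0.5 or higher. As deposited, the ordered shares were 71.8% against 70.5% and 51.3% against 47.9%, so that measure separated the reversing probes from the rest only after scaling. The signs do not depend on scaling. For diverging probes set against all probes, the 2 scales gave opposite pictures. After scaling, 45.2% of 252 on the positive side rose in order and 60.8% of 51 on the negative side fell in order, against 22.0% and 20.9% of all 13151 probes. As deposited, 10.2% of 1116 rose and 7.11% of 436 fell, against 26.4% and 22.3% of all. Of the 1116, 86.5% were already positive at 0 min, and of the 436, 12.4%. Among all 7255 probes positive at 0 min, 6.23% rose as deposited and 16.7% after scaling. Among all 5896 negative at 0 min, 5.36% fell as deposited and 18.6% after scaling. Beside probes of these starting signs, the diverging probes had the larger ordered share on both scales.

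**Figure D4:**
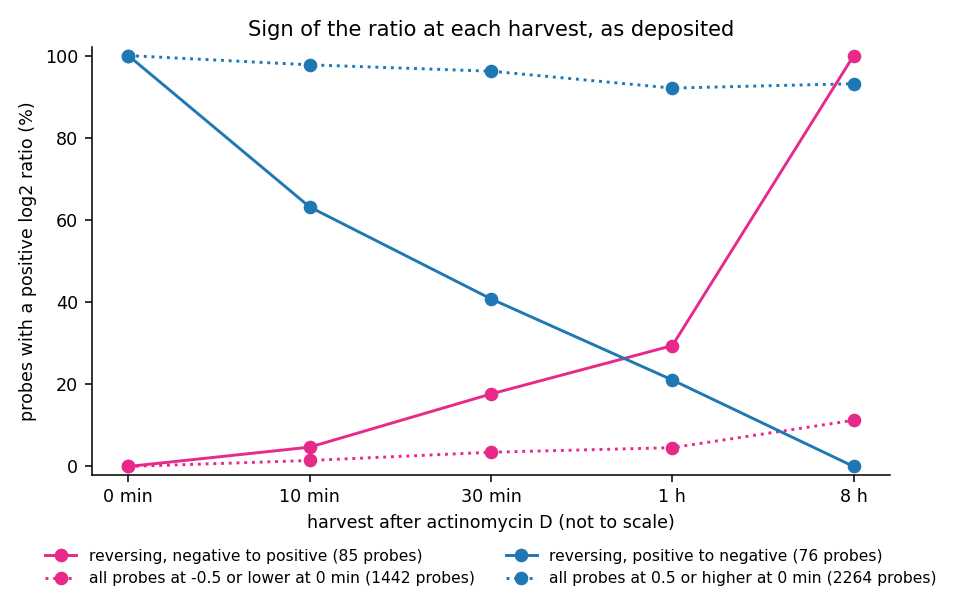
Share of probes (%) with a positive deposited log2 ratio at the 5 harvests (x axis, not to scale) for the probes that reversed between 0 min and 8 h (solid lines) and for all probes that started at least 0.5 from 0 on the same side (dotted lines); 21.1% of the probes that end negative and 29.4% of those that end positive are positive at 1 h.

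On the positive side 318 genes (3.58%) persisted as deposited, and 6 are described. REL, a subunit of NF-kappaB, had ratios of 2.41, 3.41, 2.95, 1.53 and 3.37. CSF1, the macrophage colony-stimulating factor, read 2.34, 2.59, 3.21, 1.01 and 3.33, and the cytokine IL1A read 2.08, 2.32, 2.26, 0.76 and 2.94. The IL1A probe was also at 1.13 on the array of treated RNA against itself, outside that array's central range, so its level is the least certain of these. The transcription factor ETS1 read 1.93, 2.51, 2.67, 1.25 and 2.88, the kinesin KIFC3 read 2.30, 2.73, 3.06, 1.43 and 3.24, and RAB9A, a small GTPase of transport to the trans-Golgi network, read 2.07, 2.42, 2.82, 1.41 and 2.85. All 6 genes were lowest at 1 h and higher at 8 h than at 0 min as deposited, by 0.78 to 1.00, and lower by 0.64 to 0.96 after scaling.

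On the negative side 29 genes (0.326%) persisted as deposited and 21 on both scales. PODXL, the sialomucin podocalyxin, had ratios of -2.0, -3.07, -2.93, -1.88 and -2.68, and TLCD3A, a membrane protein, read -1.64, -2.68, -2.36, -1.74 and -2.57. CERK, which phosphorylates ceramide, read -1.05, -2.02, -1.72, -1.16 and -2.01, and SRM, spermidine synthase, read -1.06, -2.32, -1.97, -1.38 and -1.91. AP1S1, a subunit of the clathrin adaptor AP-1, held between -1.46 and -1.10 through the first hour and was lowest, at -2.0, at 8 h. TM4SF1, a tetraspanin-like surface protein, met the rule by its end points alone, with readings of -1.02, -0.10, 0.21, 0.44 and -1.91, and it was close to 0 or positive in between.

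Narrowing was the smallest class as deposited. COL16A1, a chain of type XVI collagen, had ratios of 2.44, 1.96, 0.83, -0.05 and 0.21, and INPPL1, an inositol phosphatase of insulin signalling, read 2.19, 1.98, 0.81, -0.14 and -0.08. Both had lost their ratio by 1 h. SMPDL3B, a phosphodiesterase of the cell surface, read 2.19, 1.11, 2.06, 0.17 and -0.30, and CFAP410, a ciliary gene, read 2.78, 2.81, 3.09, 0.19 and 0.34. ARHGAP44, a GTPase-activating protein, stayed between 3.09 and 3.62 up to 30 min, was not measured at 1 h and was 1.39 at 8 h. KLHL4 went from 2.67 to 0.26 with 0.39 at 30 min and no value at 10 min and 1 h. On the negative side only 4 genes (0.045%) qualified, against 23 (0.259%) on the positive side, and 3 of them, EVI5, SNRPF and TMEM176B, lacked a value on 2 of the 3 arrays in between. The fourth, XKR8, a scramblase of the plasma membrane, read -1.63, -2.57, -1.16, -1.07 and -0.58.

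Gene groups are described by counts and medians over their measured genes, beside those of all 8892 genes, of which 55.0% had a positive difference as deposited and 48.7% after scaling, with medians of 0.06 and -0.01. The lists were chosen with results of these data known, and the numbers are descriptions. Of the 30 lists, 29 had measured members, and the list of mitochondrially encoded genes had none.

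Mitochondrial ribosomal protein, ribosome biogenesis and proteasome genes had positive median differences on both scales. Among genes of mitochondrial ribosomal proteins, 35 of 43 had a positive difference as deposited and 38 after scaling. Their median ratio over the 5 harvests was -0.30, -0.74, -0.38, -0.25 and 0.10, and their median difference was 0.40 as deposited and 0.49 after scaling. The number of genes with a positive ratio went from 9 to 25. MRPS2 read -0.51, -0.88, -0.13, -0.15 and 1.43, and MRPL36 read -0.43, -0.60, -0.06, 0.08 and 1.56. MRPS18B was positive throughout, with 0.68, 1.01, 1.64, 0.95 and 3.31. Ribosome biogenesis genes, which assemble the cytosolic ribosome in the nucleolus, had a positive difference in 23 of 26 as deposited and in 20 after scaling, with medians of 0.43 and 0.50. NOB1, an endonuclease that matures the small subunit's RNA, read -0.05, -0.26, 0.11, 0.11 and 2.06. DKC1, the pseudouridine synthase dyskerin, read -0.80, -0.97, -0.90, -0.38 and 0.43. Proteasome genes had a positive difference in 21 of 34 as deposited and 28 after scaling, with medians of 0.24 and 0.34. At 8 h 17 of them had a positive and 17 a negative ratio, with a median of 0.01. PSMD12, a subunit of the regulatory cap, read 0.22, 0.20, 0.41, 0.43 and 1.73. As deposited, 5 of 43, 5 of 26 and 3 of 34 genes of these lists were diverging to the positive side, against 8.85% of all genes. Single differences ran from -0.46 to 2.64, from -0.71 to 2.55 and from -0.82 to 1.51.

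Of 35 G2/M genes, which act in the entry into mitosis and its course, 32 had a positive difference as deposited and 30 after scaling. The number diverging to the positive side was 13 as deposited, against 8.85% of all genes, and 3 after scaling, against 1.93%. A positive ratio was found in 22 of them at 0 min and in 30 at 8 h. Their median ratio was 0.06, -0.09, -0.03, 0.10 and 1.08 over the 5 harvests. CDC20, an activator of the anaphase-promoting complex, read -0.35, -0.67, -0.50, 0.04 and 1.95. CKS2, a partner of cyclin-dependent kinases, read 0.69, 0.68, 1.09, 0.28 and 3.32. UBE2C, the ubiquitin-conjugating enzyme of that complex, read -0.26, -0.95, -0.48, -0.06 and 1.33, and PLK1, a mitotic kinase, read -0.26, -0.58, -0.61, 0.45 and 1.29. Every one of these 4 genes lay between -0.95 and 1.09 through the first hour and at 1.29 or higher at 8 h. Genes of G1/S and DNA replication differed less, with a median difference of 0.17 as deposited and 0.32 after scaling, with 22 of 37 positive as deposited and 31 after scaling. Their median ratio at 8 h was -0.04, and 21 of the 37 were still negative there. RFC4, a subunit of the clamp loader of DNA replication, read -0.63, -1.17, -0.96, -0.84 and 0.76. Zinc finger genes of the ZNF series were positive in 92 of 114 as deposited and in 75 after scaling, with medians of 0.62 and 0.23, and ZNF282 read 0.18, 0.45, 1.09, 0.70 and 3.02.

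As deposited, genes of the extracellular matrix lay furthest on the negative side of the 29 lists. Of 44 such genes, 43 had a negative difference as deposited and 38 after scaling, with medians of -1.01 and -0.59. Their median ratio over the 5 harvests was -0.14, -1.02, -1.02, -0.79 and -1.05. Nearly all of the shift was thus present on the 10 min array, the widest of the 5. As deposited 13 were diverging to the negative side and 4 reversed to negative, against 2.87% and 0.382% of all genes. Genes of endoplasmic reticulum chaperones and the unfolded protein response were negative in 27 of 30 as deposited and in 23 after scaling, with medians of -0.77 and -0.32. SEL1L, an adaptor of the ubiquitin ligase that clears misfolded proteins, read -0.38, -0.95, -1.63, -1.45 and -2.18, and HSP90B1, the chaperone of that compartment, read -0.25, -1.07, -1.07, -0.28 and -1.67. The median of this list was -0.38 at 0 min and -1.12 at 10 min. Glycolysis genes had medians of -0.72 and -0.26, with 13 of 16 negative as deposited and 11 after scaling. Cytosolic ribosomal protein genes were negative in 42 of 53 as deposited and 43 after scaling, with medians of -0.50 and -0.15, the opposite side from the mitochondrial ribosomal proteins. Many of these messages have near-identical pseudogenes, so a probe can report more than 1 of them.

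Common reference genes shared the negative side. Of 18, 15 had a negative difference as deposited and 14 after scaling, with medians of -0.68 and -0.35. ACTB, measured by 9 probes, read 0.38, -0.69, -0.40, -0.44 and -0.31, GAPDH, by 8 probes, read 0.60, -0.18, 0.11, 0.02 and -0.40, and LDHA, by 9 probes, read 0.26, -1.30, -1.17, -1.16 and -1.23. These 3 were positive at 0 min and negative at 8 h, although the GAPDH probes ranged from -1.68 to 0.12 in the difference as deposited. ALAS1, by 1 probe, went the other way, with -0.004, -0.005, 0.17, 0.12 and 1.31. The labels say that each slide was normalised on housekeeping genes, which they do not name, and the part of that step in these differences was not tested. Tubulin genes had a median of -0.67 as deposited and -0.04 after scaling. TUBA1A, by 9 probes, read -0.34, -2.90, -2.28, -2.54 and -2.73, but its probes ranged from -3.94 to 1.76 in the difference as deposited, and the alpha-tubulin genes are alike enough that a probe can report more than 1 of them.

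For several lists the sign of the median difference turned with the scaling, among them those known for unstable messages. Immediate-early and AU-rich regulators had a median ratio of 0.84 at 0 min and 1.86 at 8 h, and a median difference of 0.45 as deposited and -0.25 after scaling. As deposited, 20 of 60 were diverging to the positive side, 10 were persisting and 3 reversed to positive, against 8.85%, 3.58% and 0.664% of all genes. After scaling, 5 were diverging, 14 narrowing and 14 persisting on that side, against 1.93%, 2.49% and 5.05% of all genes. EGR4, a zinc finger regulator induced early after stimulation, had 5.94, 6.74, 6.44, 1.19 and 5.80, and ATF3, a stress-induced transcription factor, had 4.88, 5.16, 5.36, 1.31 and 5.02. Their differences as deposited were -0.14 and 0.14, and since scaling multiplies 0 min by 1.40 and 8 h by 0.716, their scaled differences were -4.15 and -3.23. Cytokines and chemokines with unstable messages had medians of 0.30 and -0.25. CXCL8, the neutrophil attractant interleukin-8, read 3.96, 4.86, 3.37, 1.11 and 5.0. Replication-dependent histone genes, whose messages end in a stem-loop in place of a poly(A) tail, had medians of 0.29 and -0.81, and a median ratio of 1.76 at 0 min and 2.87 at 8 h. H4C8 read 4.75, 5.39, 5.54, 1.60 and 5.27, although histone genes of 1 family are so alike that their probes may share signal. The list of nonsense-mediated decay targets went from a median ratio of 0.33 to 0.71, with median differences of 0.27 and -0.14. Genes of p53 targets (0.29 and -0.08) and interferon-stimulated genes (0.10 and -0.11) turned as well, and nuclear oxidative phosphorylation genes turned the other way (-0.27 and 0.04).

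**Figure D5:**
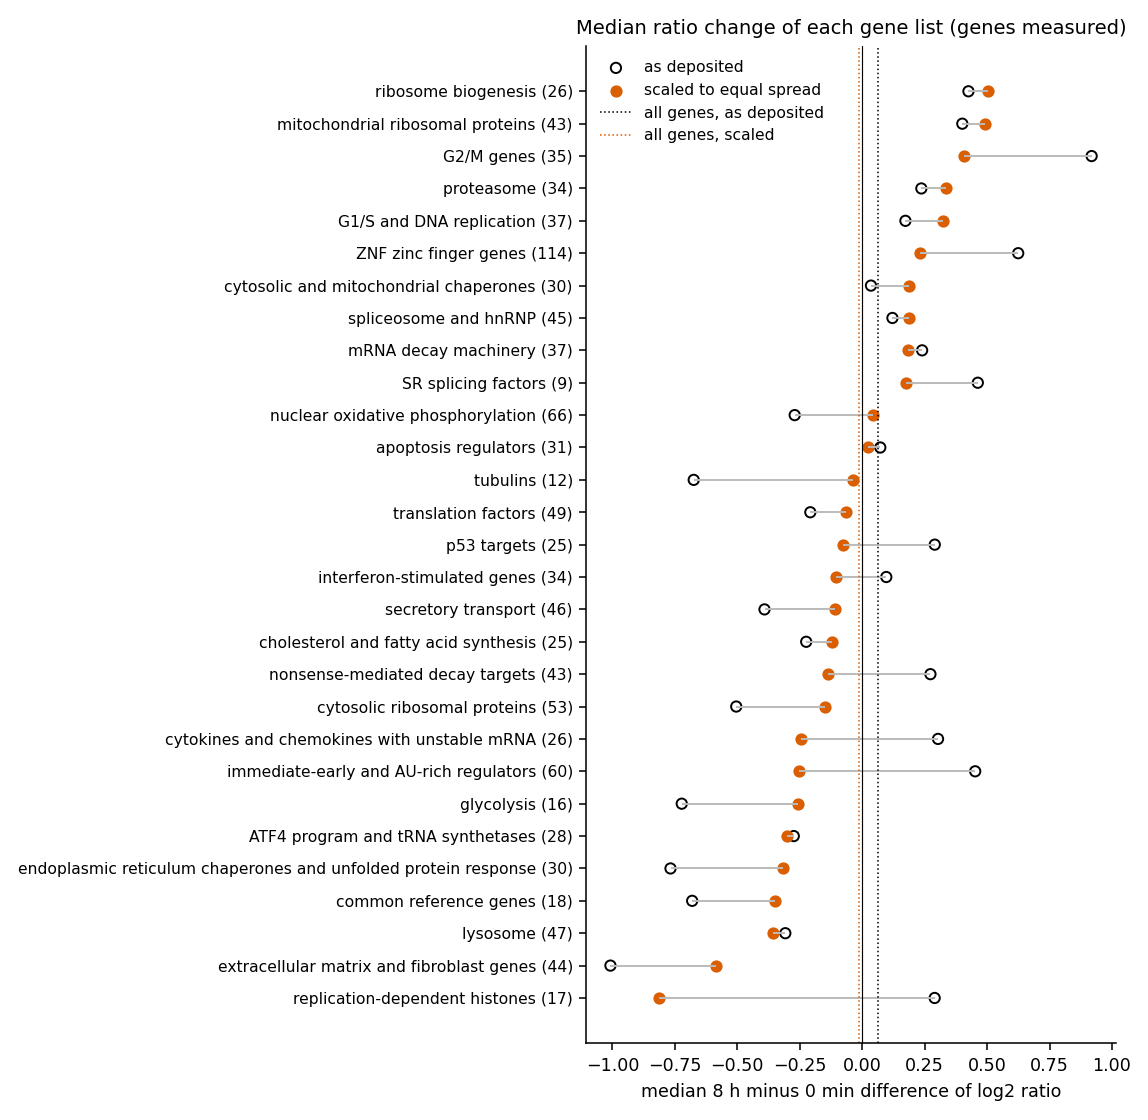
Median 8 h minus 0 min difference of log2 ratio (x axis) for 29 gene lists, with the number of measured genes in brackets, as deposited (open circles) and after scaling (filled circles); dotted lines mark the median of all 8892 genes, the extracellular matrix list lies at -1.01 and -0.59, the mitochondrial ribosomal protein list at 0.40 and 0.49, and the histone list at 0.29 and -0.81.

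A test over all probes set the 8 h array against the 4 harvests of the first hour. It assumes that the lone 8 h array varies as those 4 do, and it cannot tell the time of harvest from the array. Those 4 arrays are different times, so their spread includes change between harvests and is no replicate error. With limma on 13151 probes measured at all 5 harvests and 3 residual degrees of freedom, 405 probes (3.08%) passed a Benjamini-Hochberg adjusted p of 0.05 as deposited, 395 positive (3%) and 10 negative (0.076%). After scaling the 5 arrays to equal spread, limma called 0 probes, with 1928 at an unadjusted p below 0.05 and a lowest adjusted p of 0.0632. The limma count as deposited was 0 without the 0 min array, whose description conflicts with its channel names, with 1859 probes at an unadjusted p below 0.05. It was 106 without 10 min, 222 without 30 min and 612 without 1 h. A slope over the logarithm of time, fitted with limma in place of the contrast, called 0 probes as deposited, with 1870 at an unadjusted p below 0.05, and 27 after scaling. No p is given for the genes chosen by class, since they were chosen on 2 of the arrays in the test.

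The labels name no tissue or cell type, and a ratio between cultures gives no level, so marker genes cannot show what these cells are. Of 15 fibroblast markers 14 were measured, with a median ratio of -0.12 at 0 min and -1.13 at 8 h and every difference negative, from -3.03 to -0.04. The medians of markers of B lymphocytes, T and NK cells, epithelium, endothelium, and monocytes and macrophages differed by -0.15 to 0.33 as deposited. Most fibroblast markers are matrix genes of the list above, so this repeats its values. In bulk RNA, fewer cells of a kind and less RNA per cell cannot be told apart.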

How the data were processed

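The deposited values are log2 ratios, 1 per probe and array, made by the authors. Per the labels' protocols, background-subtracted intensities were divided, each slide was normalised by a ratio-statistics method on housekeeping genes, and ratios with a quality below 0.5 were discarded. The log base follows from the values: 2 raised to each value, times 10000, was whole within 0.05 for 99.5 to 100% of the values of an array. Each array repeats 1 value often (0.88 at 367 probes at 0 min, 0.99 at 416 at 8 h, with the next most repeated at 8 and 7), and these entries were dropped as not measured.

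Here, 8 h minus 0 min was taken per probe, as deposited and scaled to equal median absolute deviation. The probe annotation gave 1 gene for 11304 probes, several for 446 and none for 2330, and symbols were updated through RefSeq. A gene is the mean of its probes. Of 1584 genes with several probes, 1024 had 1 sign of scaled difference over all of them.

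Genes were named by a rule: those in a class on both scales, with 1 sign over their probes, up to 8 a side for diverging and 6 for the others, by scaled difference (diverging, narrowing) or the smaller of both sizes (persisting, reversing), and up to 4 of each list by scaled difference; the text gives a selection of the latter. The members, the lists and the rule were chosen with earlier results of these data known. All samples come from 1 cell line, and nothing says that arrays came from separate cultures. limma 3.58.1 in R 4.3.3 fitted 8 h against the first-hour harvests and was tested on simulated data; Python 3.11.15 with pandas 2.3.3 and numpy 2.4.6 did the rest. Alternatives were other limits, other starting arrays, other scalings, centring, keeping repeated values, values per gene, leaving out each array, and a slope over time. The count of order and sign over the first-hour arrays was chosen after seeing the data.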

Additional observations from a re-analysis of the deposited data

How the results depend on the processing

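No paired analysis was possible because each harvest has 1 array and there are no replicate numbers to pair. Shares below are of probes, as diverging, narrowing, persisting and reversing in that order. A limit of 1.5 (0.75 for a reversal) gave 4.63%, 0.119%, 1.86% and 0.349% as deposited and 0.564%, 1.16%, 2.67% and 0.467% after scaling. A limit of 0.5 (0.25 for a reversal) gave 31.0%, 1.96%, 10.6% and 4.59% as deposited and 9.95%, 10.6%, 18.6% and 5.21% after scaling. With the 10 min array as the start the shares were 6.57%, 2.43%, 14.01% and 2.02% as deposited, and 7.32%, 1.97% and 14% for the first 3 after scaling. With the 30 min array they were 5.78%, 1.44% and 12.8% as deposited, and 4.50%, 2.04% and 13.4% after scaling. The other shares, and those under centring, kept repeated values, values per gene and the other scalings, stayed within 1.5 times.

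The limma count as deposited ranged from 0 to 612 when 1 first-hour array was left out, was 113 with repeated values kept and 0 for a slope over time; after scaling it was 0 in every fit except the slope, with 27. Of 128 named genes, the sign of the scaled difference turned in 25 as deposited and in 0 under centring, kept repeated values or quantile normalisation. Some of the 128, such as ATP6V0A1, were not measured at 10 min or 30 min. Among those measured on the starting array, the sign turned in 22 from 10 min and 13 from 30 min. Where the scaled difference was at least 1 in size it turned in 13 as deposited, 9 from 10 min and 7 from 30 min. As deposited these were ATF3 0.14, BBC3 0.072, CCNL1 0.94, CXCL1 0.32, CXCL3 1.04, CXCL8 1.04, DDIT3 1.60, H2BC13 0.26, H2BC15 0.23, H4C5 0.57, H4C8 0.52, ICAM1 0.18 and MAP3K14 0.78. From 10 min they were ATF3 0.17, CXCL3 0.49, CXCL8 0.43, DDIT3 1.73, H2BC13 0.30, H2BC15 0.25, H4C5 0.060, H4C8 0.19 and MAP3K14 0.72. From 30 min they were CALR 0.27, CXCL1 0.23, CXCL8 1.22, DDIT3 0.42, H4C5 0.55, LDHA 0.059 and SNRPF -0.75. The cause was not tested.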

Other observations

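Among all genes, 55.0% had a positive difference as deposited and 48.7% after scaling. Of 9 SR splicing factor genes 8 had a positive difference as deposited and 6 after scaling, with medians of 0.46 and 0.18. SRSF3 had ratios of 1.22, 1.87, 2.09, 0.97 and 3.33 from 0 min to 8 h, with 8 h the highest harvest. Of 45 spliceosome and hnRNP genes 27 were positive as deposited and 29 after scaling, with medians of 0.12 and 0.19, and HNRNPF, an hnRNP protein that binds G-rich RNA, had 0.52, 0.71, 0.97, 0.59 and 2.77. Of 37 genes of the decay machinery 24 were positive as deposited and 26 after scaling, with medians of 0.24 and 0.18, and CNOT2, a subunit of the CCR4-NOT deadenylase complex, had 0.40, 0.50, 0.71, 0.57 and 2.26. ZFP36L1, which binds AU-rich elements and promotes decay, had 0.64, 0.57, 1.19, 0.62 and 2.78. HNRNPF, CNOT2 and ZFP36L1 also had their highest ratio at 8 h.

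Chaperones outside the endoplasmic reticulum were divided. As deposited 15 of 30 had a positive and 15 a negative difference, and 21 were positive after scaling, with medians of 0.04 and 0.19. BAG2, a co-chaperone of Hsp70, had -0.05, -0.15, 0.53, 0.36 and 2.46 and DNAJB4, another, had -0.07, 0.65, 0.59, 0.72 and 2.28. Lysosomal genes lay on the negative side in 33 of 47 as deposited and 37 after scaling, with medians of -0.31 and -0.36. BNIP3L, a receptor for the removal of mitochondria by autophagy, was named from the list of apoptosis regulators and had -0.38, -1.0, -0.94, -0.92 and -2.27. Of the 31 genes of that list 18 had a positive difference on each scale, with medians of 0.07 and 0.02. SLC7A5, a transporter of large amino acids in the ATF4 program, was measured by 2 probes and had -0.30, -2.02, -1.96, -1.59 and -2.33. Of 28 genes of the ATF4 program and tRNA synthetases 19 had a negative difference on each scale, with medians of -0.27 and -0.30. DDIT3, SESN2 and SLC38A2, named from the same list, had positive differences as deposited (1.60, 0.98 and 0.86). PHLDA3, a p53 target that restrains Akt signalling, stayed between -0.16 and 0.17 through the first hour and was 1.74 at 8 h. Its scaled difference was 1.46, while PPM1D, BBC3 and TNFRSF10B, named from the same list, had -1.63, -1.52 and -1.46. Of 25 p53 targets 16 had a positive difference as deposited and 11 after scaling.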
